A study of Daphnia magna with 40 samples.

Results

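The effect of fluvoxamine in adult Daphnia magna was set against its effect in juveniles, probe by probe, on one-colour Agilent arrays. For each probe the adult difference, fluvoxamine minus acetone, was reduced by the same difference in juveniles. The result is called the interaction here: a positive value means a higher effect in adults, a negative value a lower one. It used 16 of the 40 arrays of the series, 4 in each of 4 groups taken from the stage and treatment labels.

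The groups were adult FV10, adult acetone, juvenile FV10 and juvenile acetone, where FV10 stands for fluvoxamine (spelled fluovoxamine in the labels) at 10 µg/L. The series' design text gives 30 ppb for the same drug, and neither source settles which was applied. All animals were whole females or young of clone F, a single laboratory clone. Acetone at 0.1 ml/L carried every chemical and was given alone to the controls, so an array of animals without acetone was not analysed here. Adults were egg-bearing females 8 to 9 days old at the start. They were exposed over 3 broods, which took 10 to 14 days, and were frozen after their eggs had been flushed out. Juveniles entered the exposure under 24 h old and stayed in it for 3 days, 20 animals to a vessel of 0.5 L, with the 20 pooled into 1 sample. Stage therefore goes together with length of exposure, age and the way a sample was made up, and these cannot be told apart. For adults the labels do not say how many females made a sample or how replicates were kept, so that the spread behind adult p-values may be only technical. In whole animals, fewer cells of a type and less RNA per cell cannot be told apart.

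Fluvoxamine is an antidepressant that blocks the reuptake of serotonin by its transporter, and fluoxetine, also in the series, is another drug of that class. Serotonin is a neurotransmitter that in crustaceans also takes part in the control of metabolism, moulting and reproduction. Daphnia magna is a water flea that reproduces clonally for most of its life, so animals of a clone share their genotype. A juvenile in its first days grows and moults, while an egg-bearing female cycles between moulting, yolk formation and laying. Nonylphenol, given to the remaining treated groups, is a breakdown product of detergents.

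The probes carry identifiers such as DM00294P3, and no table used here pairs them with genes, sequences or positions. Of the 14338 probes, 0 were found in the gene table used here (assembly ASM2063170v1.1), so the lists of serotonin, yolk, cuticle, moulting and metabolic genes had no measured member, and the labelled stages could not be checked against marker genes. Levels are given as scaled log2 signal, which is log2 of a probe's processed intensity minus log2 of the array's 75th percentile intensity. A scaled value of 0 thus means as bright as that percentile, and levels of different probes were not set against each other. The 75th percentile intensity lay between 76.9 and 348 on the 8 adult arrays and between 205 and 774 on the 8 juvenile arrays. The share of probes well above background was 54.0% to 86.6% on adult arrays and 57.9% to 80.0% on juvenile arrays. Probes well above background on fewer than 4 of the 16 arrays were left out of the tests, which left 12201.

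A probe is said to have passed the test when its Benjamini-Hochberg adjusted p, over all 12201 probes, was under 0.05 in limma's fit of all 40 arrays. The interaction passed for 478 probes, or 3.92% of those tested. The effect was higher in adults for 212 of them (1.74%) and lower in adults for 266 (2.18%). When arrays were scaled to the median of probes well above background on all 16 arrays, 682 probes passed and the split was 148 higher and 534 lower, so the balance of directions depended on the scaling. The size of the difference was at least 2-fold in 476 of the 478, with a median of 2.01 on the log2 scale and a range of 0.945 to 6.20. The median 95% interval of an interaction, which is not adjusted for the number of probes, reached 1.31 to either side. At a typical standard error the adjusted test took a larger difference than that, so differences of 1.31 or less were mostly beyond reach. Unadjusted, 2497 probes had p under 0.05. Fitted on the 16 arrays alone, with the same fold changes but a spread estimated from fewer arrays, 2 probes passed. With normexp background correction before the 75th percentile scaling, 16 passed.

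The count of 478 rested on single arrays. Without juvenile FV10 A it was 111, without juvenile FV10 B 127 and without juvenile acetone A 188. It was 206 without adult FV10 H, 217 without adult acetone E, 248 without adult FV10 E and 295 without juvenile acetone C. Conversely, it was 1288 without juvenile FV10 C and 895 without adult acetone G. In the other 7 fits with 1 array left out the count lay within 1.5 times of 478. Of the 478 probes, 93 passed in all 16 of these fits, and all 478 kept their direction in each. The 478 were chosen for large values on these same arrays, so kept directions were nearly fixed beforehand and are no test. Without both juvenile FV10 A and B, 14 probes passed, 9 of them among the 478.

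**Figure D1:**
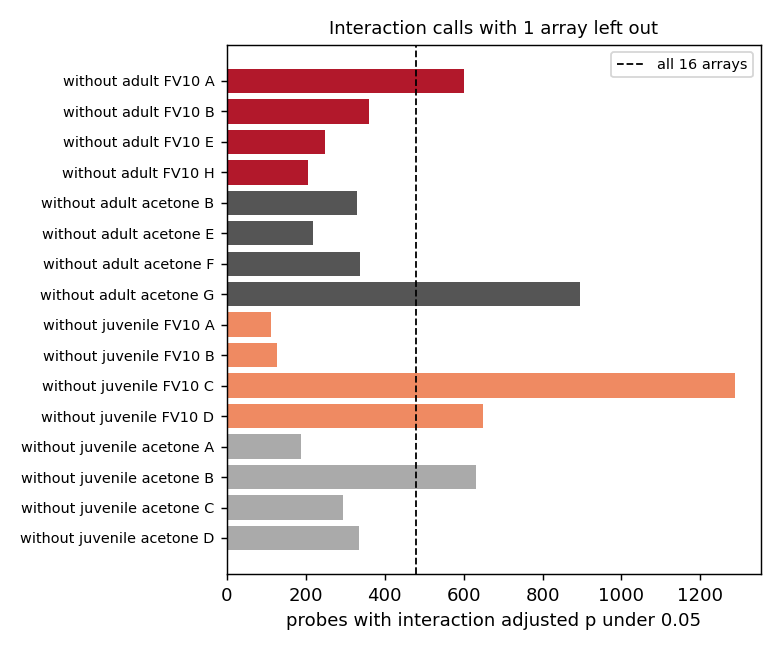
Number of probes whose interaction had an adjusted p under 0.05 (horizontal axis) when the array named at the left was left out. Bars are coloured by group and the dashed line marks the 478 probes of the fit with all 16 arrays. The bars run from 111 without juvenile FV10 A to 1288 without juvenile FV10 C.

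The drug's own effect in each stage was unequal in reach. In juveniles, 1267 probes passed (10.4%), 755 of them higher (6.19%) and 512 lower (4.2%) in FV10 than in acetone. After quantile normalization 1196 passed and the split turned to 483 higher and 713 lower, so it too depended on the scaling. With normexp background correction and the 75th percentile the order was reversed, as 1 juvenile and 194 adult probes passed. On the 16 arrays alone, 14 juvenile and 5 adult probes passed. Without juvenile FV10 A and B together, 11 juvenile and 4 adult probes did. The counts of the stages were not compared by a test. Left-out arrays moved the juvenile count to 92 without FV10 A, 279 without FV10 B and 2310 without FV10 C. It was 612 without acetone A, 661 without acetone C and 699 without acetone D. In adults, 3 probes passed (0.0246%), all 3 higher (0.0246%) and none lower (0%) in FV10 than in acetone, while 1164 had an unadjusted p under 0.05. This direction also depended on the processing: quantile normalization gave 2 higher and 4 lower, median scaling and the deposited table each 2 higher and 3 lower. Normexp with quantile normalization gave 5 higher and 21 lower, normexp with the 75th percentile 175 higher and 19 lower, and the 16 arrays alone 1 higher and 4 lower. Without adult acetone F the adult count was 16, without adult acetone E it was 1, and without any one of the FV10 arrays A, B, E or H it was 0. The standard errors had a median of 0.46 in adults and 0.45 in juveniles. They came from a spread shared by all groups, so their likeness was set by the fit and does not compare the stages. Fitted on the 20 arrays of each stage alone, 0 adult and 1102 juvenile probes passed. Over all tested probes the adult effects had an SD of 0.67 and the juvenile effects an SD of 0.82, on the log2 scale.

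Among the 478 probes that differed between stages, the juvenile side carried most of the size. The 212 probes with a higher interaction had a median effect of 0.54 in adults and -1.07 in juveniles. The 266 with a lower interaction had medians of -0.57 in adults and 1.62 in juveniles. The juvenile effect was the larger in 410 of 478 (85.8%), against 61.5% of all tested probes. Juvenile FV10 also passed against acetone in 388 of the 478, against 1267 of all 12201 tested. Adult FV10 passed in 3, against 3 of all tested, and neither effect passed in 88, against 10932. The interaction contains both effects, so choosing by it favours such calls. Signs were opposite in 474 of the 478 (99.2%, against 50.4% of all tested), a pattern that choosing large differences favours by itself. By sign, 211 were positive in adults and negative in juveniles, 263 the reverse, 3 positive in both and 1 negative in both.

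**Figure D2:**
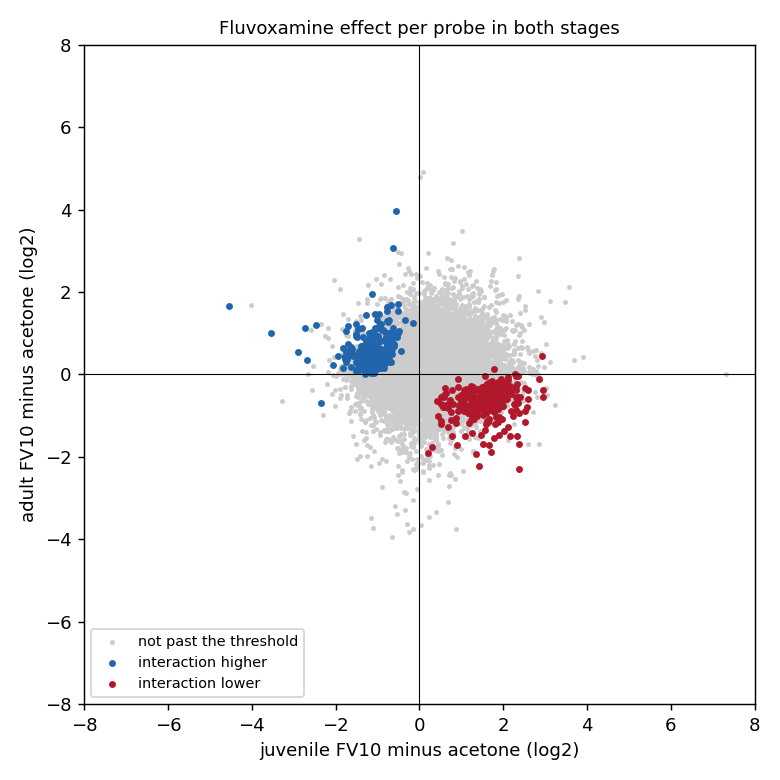
Effect of FV10 against acetone (log2) in juveniles (horizontal axis) and adults (vertical axis) for 12201 probes, 1 point each. Coloured points passed the interaction test, 212 higher (blue) and 266 lower (red), and they lie farther from 0 along the juvenile axis than along the adult axis.

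By raw values and without a test, a probe can be asked to have all 4 FV10 values beyond all 4 acetone values. More probes met this than passed the test in either stage, but neither criterion contains the other. Of the 1157 probes that passed in juveniles and had complete values, 683 met it there. A share of 0.0286 of the arrangements of 4 against 4 arrays separates the groups in this way. Among the 10854 probes measured on all 16 arrays, this held in juveniles for 1317 (12.1%) and in adults for 535 (4.93%). It held in both stages in opposite directions for 45 probes (0.415%) and in both stages in the same direction for 19 (0.175%). Of the 478, 412 had complete values. In these the groups were apart in juveniles for 265, in adults for 73, in both with opposite directions for 36, and in both with the same direction for 0.

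Across all 12201 probes, Pearson's r between the effect in adults and the effect in juveniles was 0.0038, and 49.6% of probes had the same sign. That r depended on the combination of background correction and normalization. It was 0.30 with normexp and the 75th percentile, and -0.095 with normexp and quantile normalization. Quantile normalization without normexp gave -0.049. These effects share no array, although probes on an array share its signal strength. For the 6011 probes well above background on all 16 arrays, r was -0.17 and 42.2% had the same sign. Of the 1267 probes that passed in juveniles, 378 (29.8%) had the same sign in adults.

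DM06256P4 showed opposite effects in both stages without overlap of the arrays. In adults its scaled log2 signal was -1.97, -3.67, -5.25 and -2.76 in FV10, against -1.23, -0.999, -1.16 and -1.11 in acetone. In juveniles it was 0.14, -0.11, -1.81 and -1.12 in FV10, against -3.85, -2.31, -2.92 and -3.34 in acetone. Every adult FV10 array lay below every adult acetone array, and every juvenile FV10 array above every juvenile acetone array. The interaction was -4.67 (SE 0.96, adjusted p = 0.01005 in limma), made up of -2.29 in adults and 2.38 in juveniles. It passed in all 16 fits with 1 array left out and in 10 of 18 other settings. The size was -2.16 with normexp and the 75th percentile (adjusted p = 0.191 in limma) and -2.15 with normexp and quantile normalization (adjusted p = 0.00118 in limma). It was -2.64 against the other treated groups (adjusted p = 0.267 in limma). The adjusted p in limma was 0.083 with signal strength as a covariate, 0.0728 on the 16 arrays alone and 0.145 without juvenile FV10 A and B. Adult FV10 was well above background on 3 of 4 arrays, and the other 3 groups on all 4.

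DM15232P1 had the other of the largest negative interactions under the naming rule, with weak signals. Its adult values were -5.84, -3.28, -5.42 and -5.54 in FV10, against -3.47, -3.14, -2.47 and -4.22 in acetone. Its juvenile values were -2.70, -3.04, -6.22 and -5.34 in FV10, against -7.61, -5.86, -6.07 and -7.26 in acetone. In each stage 1 FV10 array lay among the acetone arrays. The interaction was -4.07 (SE 1.13, adjusted p = 0.0362 in limma) and passed in 6 of 16 fits with 1 array left out and 8 of 18 other settings. It was -1.23 with normexp and the 75th percentile (adjusted p = 0.542 in limma) and -0.69 with normexp and quantile normalization (adjusted p = 0.0434). It was -2.75 against the other treated groups (adjusted p = 0.359 in limma) and -4.04 with slide as a block (adjusted p = 0.0548). The probe was well above background on no juvenile acetone array and on 2 of 4 juvenile FV10 arrays. With acetone raised to its detection limit, the juvenile effect (adjusted p = 0.0518 in limma) was 1.48-fold higher in FV10. That limit is the lowest signal well above background on each acetone array, or the probe's own signal if higher. FV10 C and D, not well above background, were used as measured, so 1.48-fold is not a strict lower bound. The measured juvenile means were -4.32 in FV10 and -6.70 in acetone, and the size of the interaction is uncertain to the same degree.

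DM05031P2 differed between stages mainly on the adult side. Adult FV10 arrays stood at 2.36, 2.17, 3.26 and 3.37, against -1.98, -2.40, -2.57 and 2.26 on adult acetone arrays. Juvenile FV10 arrays stood at 3.74, 3.69, 3.40 and 3.05, against 4.30, 4.25, 3.92 and 3.65 on juvenile acetone arrays. Adult acetone G lay within the FV10 range, and the other 3 acetone arrays were far below it. The interaction was 4.53 (SE 1.33, adjusted p = 0.0477 in limma) and passed in 3 of 16 fits with 1 array left out and 8 of 19 other settings. It was 2.65 with normexp and the 75th percentile (adjusted p = 0.378 in limma) and 2.47 against the other treated groups (adjusted p = 0.479). The adult effect alone was 3.97 (SE 0.94, adjusted p = 0.134 in limma).

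DM06523P3 had the largest interaction that passed, and there the adult arrays scattered within both groups. Adult FV10 values were -3.12, 2.16, 0.18 and 1.43, against -2.78, -4.93, 1.79 and -0.11 in adult acetone. Juvenile FV10 values were -3.76, -4.54, -3.75 and -4.70, against 0.06, 1.30, 0.45 and -0.41 in juvenile acetone. The juvenile groups were far apart and the adult groups overlapped over most of their range. The interaction was 6.20 (SE 1.82, adjusted p = 0.0477 in limma) and passed in 4 of 16 fits with 1 array left out and 8 of 18 other settings. The juvenile effect was -4.53 (SE 1.29, adjusted p = 0.0225 in limma), so this probe was also among the strongest falls in juveniles. With normexp the interaction was 3.07 with the 75th percentile (adjusted p = 0.318 in limma) and 3.21 with quantile normalization (adjusted p = 0.0957). The juvenile effect was then -2.43 (adjusted p = 0.4 in limma) and -2.34 (adjusted p = 0.0684) in the same order.

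**Figure D3:**
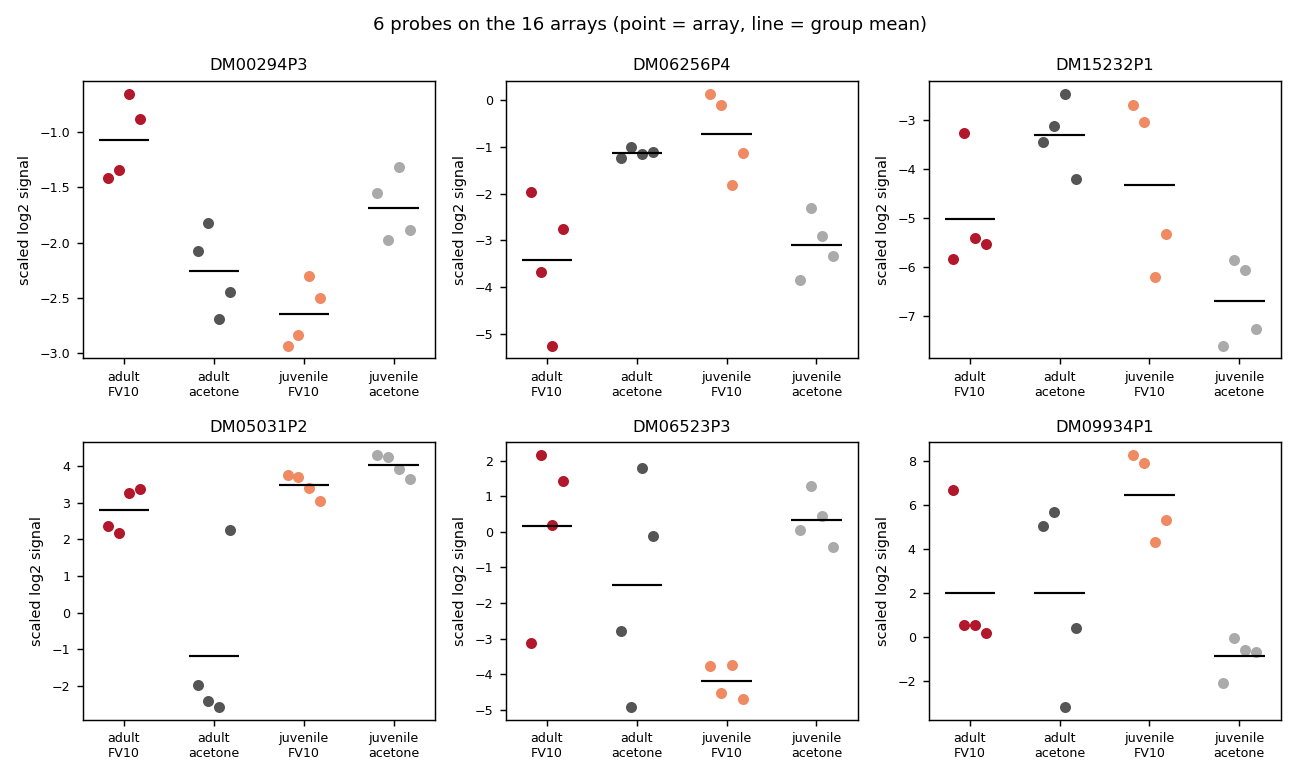
Scaled log2 signal (vertical axes) of 6 probes on the 16 arrays, 1 point an array, with a line at each group mean. Adult FV10 and adult acetone stand at the left of each panel, juvenile FV10 and juvenile acetone at the right. DM00294P3 and DM06256P4 have no overlap within either stage, and adult acetone G stands apart in DM05031P2.

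DM00294P3 had the smallest adjusted p of all interactions and passed in both stages separately. Its adult values were -1.42, -1.35, -0.65 and -0.88 in FV10, against -2.07, -1.82, -2.69 and -2.45 in acetone. Its juvenile values were -2.93, -2.83, -2.30 and -2.50 in FV10, against -1.55, -1.98, -1.31 and -1.89 in acetone. FV10 lay above acetone on all adult arrays and below it on all juvenile arrays. The interaction was 2.15 (SE 0.32, adjusted p = 0.00173 in limma), from 1.19 in adults and -0.96 in juveniles. It passed in all 16 fits with 1 array left out and in 15 of 19 other settings, but not against the other treated groups. The adult effect (adjusted p = 0.0418 in limma) passed in 1 of 8 fits with 1 array left out. It was -0.39 with normexp and the 75th percentile, of opposite sign, and 0.33 with normexp and quantile normalization (adjusted p = 0.329 in limma). With slide as a block it was 1.21 (adjusted p = 0.152 in limma).

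DM04631P2 rose in adults by 3.07 (SE 0.58, adjusted p = 0.0418 in limma). Adult FV10 values were -0.39, -1.20, -1.04 and -0.32, against -2.02, -4.68, -2.65 and -5.88 in adult acetone, with no overlap. Juvenile values were -3.39, -3.91, -3.77 and -2.97 in FV10, against -2.48, -2.77, -3.15 and -3.10 in acetone, which overlapped. The interaction was 3.70 (SE 0.82, adjusted p = 0.0125 in limma) and passed in all 16 fits with 1 array left out and in 9 of 18 other settings. Adult acetone was well above background on 2 of 4 arrays. The adult effect passed in 2 of 8 fits with 1 array left out and was 2.75 with slide as a block (adjusted p = 0.198 in limma). It was 0.010 with normexp and the 75th percentile and 0.90 with normexp and quantile normalization (adjusted p = 0.217 in limma).

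DM11817P4 was the third probe that passed in adults, named because so few did and not by the naming rule. Its adult FV10 values were 0.93, 0.92, 0.27 and 0.33, against -0.99, -1.62 and -0.49 in adult acetone, where array G has no value because its spot was marked as an outlier. Its juvenile FV10 values were 0.38, -1.08, 0.12 and 0.16, against 0.54, 0.55, 0.51 and 1.10 in juvenile acetone. FV10 lay above acetone on the adult arrays measured and below it on all juvenile arrays. The interaction was 2.43 (SE 0.43, adjusted p = 0.0076 in limma) and passed in all 16 fits with 1 array left out and in 12 of 19 other settings.

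No probe passed as lower in adult FV10 in the fit of all 40 arrays with 75th percentile scaling, and the 2 named by the smallest unadjusted p are given as values. DM10079P1 had 0.31, -0.23, 0.09 and 0.10 in adult FV10, against 1.61, 1.42, 0.64 and 1.12 in adult acetone, a difference of -1.13 (adjusted p = 0.0994 in limma). In juveniles it had 1.71, 1.73, 1.10 and 1.56 in FV10, against 1.13, 0.89, 1.23 and 0.75 in acetone. The adult groups did not overlap, the juvenile groups did, and its interaction of -1.65 passed (SE 0.35, adjusted p = 0.01005 in limma). DM08243P1 had 3.17, 3.23, 3.18 and 3.25 in adult FV10, against 4.36, 4.63, 4.14 and 3.89 in adult acetone, a difference of -1.05 (adjusted p = 0.0994 in limma). That difference was 0.31 after normexp background correction with the 75th percentile. Both probes passed as lower with median scaling (adjusted p = 0.0443 each in limma), among probes well above background on all 16 arrays (adjusted p = 0.0342 each) and with array weights (adjusted p = 0.00146 for DM10079P1 and 0.00238 for DM08243P1). Its interaction was -0.73 (SE 0.32, adjusted p = 0.186 in limma), and in juveniles the difference was -0.32.

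The strongest probe in juveniles, DM09934P1, had a large juvenile effect and an interaction that did not pass. Juvenile FV10 values were 8.28, 7.94, 4.34 and 5.34, against -2.08, -0.04, -0.58 and -0.67 in juvenile acetone. The difference was 7.32 (SE 1.58, adjusted p = 0.0059 in limma), with no overlap. It passed in 7 of 8 fits with 1 array left out and in 16 of 20 other settings. The adjusted p in limma was 0.0717 on the 16 arrays alone and 0.0507 with signal strength as a covariate. Without juvenile FV10 A and B it was 0.409. In adults the values were 6.68, 0.55, 0.54 and 0.21 in FV10, against 5.07, 5.68, -3.18 and 0.42 in acetone. High values thus occurred on 1 adult FV10 array and on 2 adult acetone arrays, and the adult difference was 0.00 (SE 1.58). The interaction of -7.32 had an SE of 2.24 and an adjusted p of 0.0551 in limma.

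The same adult arrays stood apart in 2 other probes named for juveniles. DM14198P1 fell in juveniles by 4.03 (SE 1.21, adjusted p = 0.0315 in limma), with -1.74, -2.50, -1.79 and -0.30 in FV10, against 2.96, 2.84, 3.32 and 0.67 in acetone. In adults it had 0.65, 2.75, 3.48 and 3.01 in FV10, against -0.34, -2.38, 4.68 and 1.16 in acetone. Adult FV10 A, acetone B and acetone E, which were high in DM09934P1, held the 3 lowest adult values of both DM14198P1 and DM06523P3. The juvenile effect passed in 3 of 8 fits with 1 array left out and was -3.45 with slide as a block (adjusted p = 0.066 in limma). The interaction of DM14198P1 was 5.72 (SE 1.72, adjusted p = 0.0518 in limma). DM05016P3 rose in juveniles by 3.68 (SE 1.06, adjusted p = 0.024 in limma), with -1.53, -2.54, -0.73 and -2.79 in FV10, against -4.95, -4.44, -5.68 and -7.26 in acetone. In adults it had -2.34, -3.95, -5.84 and -4.17 in FV10, against -4.51, -4.62, -3.42 and -5.15 in acetone, which overlapped. The juvenile difference was 0.76 with normexp and the 75th percentile (adjusted p = 0.983 in limma), 0.98 with normexp and quantile normalization (adjusted p = 0.0475) and 1.95 against the other treated groups (adjusted p = 0.131). It passed in 4 of 8 fits with 1 array left out and was 2.91 with slide as a block (adjusted p = 0.102 in limma). Juvenile acetone was well above background on 1 of 4 arrays there, and its interaction was -3.34 (SE 1.496, adjusted p = 0.196 in limma).

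DM00411P1 is added after its values were seen, because it passed in all 16 fits with 1 array left out and in 17 of 19 other settings, more than any other probe. It did not pass with signal strength as a covariate. Its juvenile values were -0.85, -0.67, -0.60 and -1.23 in FV10, against 1.52, 1.88, 1.64 and 2.32 in acetone. Its adult values were 2.09, 2.43, 2.76 and 2.61 in FV10, against 1.89, 2.002, 2.16 and 2.49 in acetone. The juvenile groups were well separated and the adult groups overlapped. The interaction was 3.01 (SE 0.55, adjusted p = 0.0076 in limma), from 0.34 in adults and -2.68 in juveniles. The other juvenile groups averaged 1.55 ± 0.24 in fluoxetine, 1.03 ± 1.18 in the lower and 1.73 ± 0.67 in the higher nonylphenol dose (SD, n = 4 each).

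The remaining 24 arrays, from animals given fluoxetine at 40 µg/L (FX40) or nonylphenol at 20 or 60 µg/L (NP20, NP60), show which group stood apart. For each probe the 5 group means of a stage were ranked in the direction that the interaction gives. Among the 478 probes, adult FV10 was the most extreme adult group in 82 (17.2%, against 24.7% of all tested probes). Adult acetone was the most extreme adult group, on the other side, in 441 (92.3%, against 44.0% of all tested). Juvenile FV10 was the most extreme juvenile group in 457 (95.6%, against 54.9%), and juvenile acetone was the opposite extreme in 318 (66.5%, against 35.5%). In adults it was therefore the acetone group that stood away from the other 4 groups in most of these probes, and in juveniles the FV10 group. The interaction was computed from these same means, so the shares describe the 478 probes and are not a test.

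DM00294P3 shows the pattern. Adult FV10 averaged -1.07 ± 0.37, against -2.26 ± 0.39 in adult acetone, while FX40, NP20 and NP60 averaged -0.81 ± 0.38, -1.05 ± 0.14 and -1.33 ± 0.18 (SD, n = 4 each). Juvenile FV10 averaged -2.64 ± 0.29, against -1.68 ± 0.31 in juvenile acetone, while FX40, NP20 and NP60 averaged -1.85 ± 0.20, -1.78 ± 0.33 and -1.89 ± 0.14 (SD, n = 4 each). Acetone was the lowest of the 5 adult groups and FV10 the lowest of the 5 juvenile groups. DM04631P2 was alike in adults, with -0.74 ± 0.45 in FV10, against -3.81 ± 1.79 in acetone, and -1.11 ± 0.53, -1.26 ± 1.18 and -1.27 ± 0.36 in FX40, NP20 and NP60 (SD, n = 4 each).

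**Figure D4:**
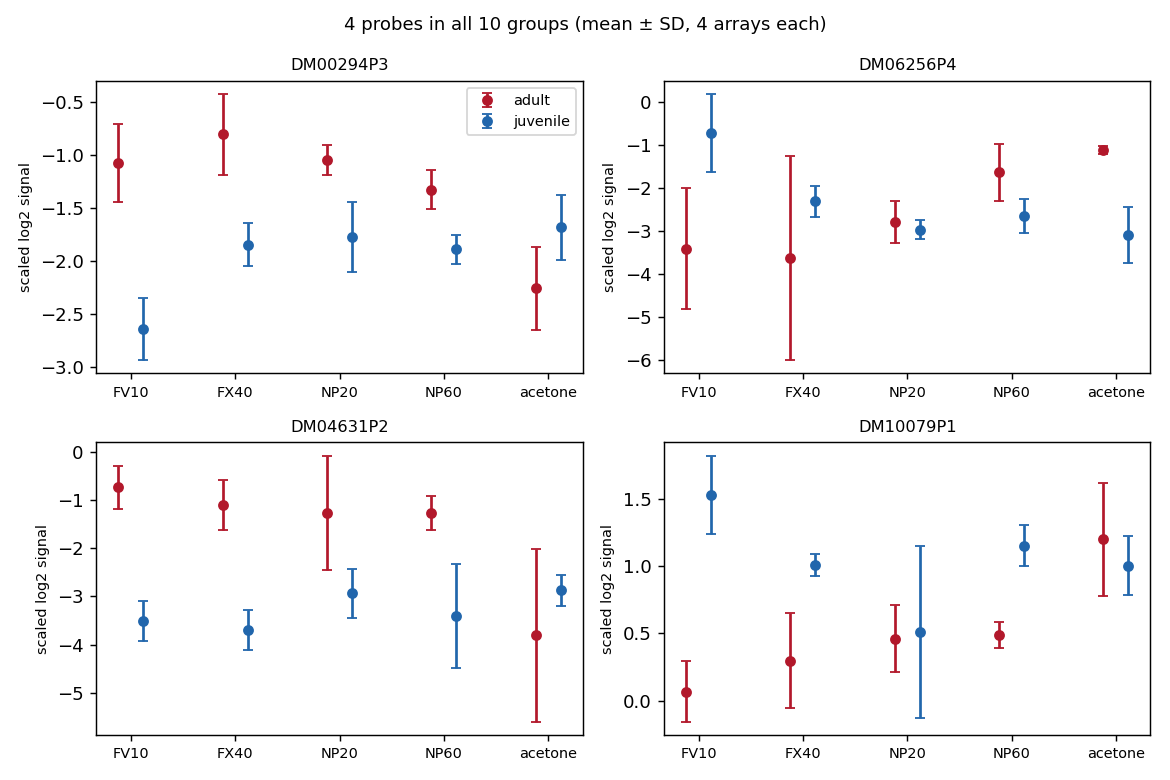
Scaled log2 signal (vertical axes, mean ± SD of 4 arrays) of 4 probes in the 5 treatments (horizontal axes), adults in red and juveniles in blue. In DM00294P3 the adult acetone mean of -2.26 lies below the other adult means, and the juvenile FV10 mean of -2.64 below the other juvenile means.

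The comparison was repeated with the mean of FX40, NP20 and NP60 of the same stage in place of acetone, an alternative chosen after seeing the data. The interaction then passed for 6 probes, all 6 among the 478, and adult FV10 passed for 0, with 1083 at an unadjusted p under 0.05. Juvenile FV10 passed for 1585. The 478 probes kept their direction in 475 cases, with a median of 0.88 in that direction. The 478 were chosen with the same FV10 arrays, so this is no test. Their median adult effect in that direction was -0.10 and their median juvenile effect, signed the same way, was -1.03. Across all probes, r between the adult and the juvenile effect was 0.40, and 967 of the 1267 probes that passed in juveniles (76.3%) had the same sign in adults. DM00294P3 then had an adult effect of -0.01. These other groups were themselves treated, so this is no measure against untreated animals.

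Signal strength moved with the comparison. The log2 of the 75th percentile intensity averaged 7.81 ± 0.55 in adult FV10, against 7.38 ± 0.74 in adult acetone (SD, n = 4 each). It averaged 8.07 ± 0.47 in juvenile FV10, against 8.88 ± 0.50 in juvenile acetone (SD, n = 4 each). FV10 arrays were thus brighter than acetone arrays in adults and dimmer in juveniles, by 0.44 and by -0.81. The adult difference rested on acetone E: without it, adult acetone averaged 7.75 and the difference was 0.066. The stage by treatment difference of 1.25 had p = 0.0433 in a two-sided exact permutation test over 4900 arrangements within stages, whose smallest possible p is 0.000408. That p ran from 0.0539 to 0.0992 without any one of adult FV10 A, B or H, adult acetone E, juvenile FV10 A or B, or juvenile acetone A or B. Within a stage the two-sided exact permutation p was 0.314 in adults and 0.0857 in juveniles, and 4 against 4 arrays cannot go below 0.0286. The share of probes well above background averaged 72.0% ± 11.5 in adult FV10, against 64.3% ± 9.4 in adult acetone, and 77.9% ± 2.1 in juvenile FV10, against 73.7% ± 10.6 in juvenile acetone (SD, n = 4 each). Adult acetone E was the dimmest of the 16 arrays and juvenile acetone A the brightest.

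**Figure D5:**
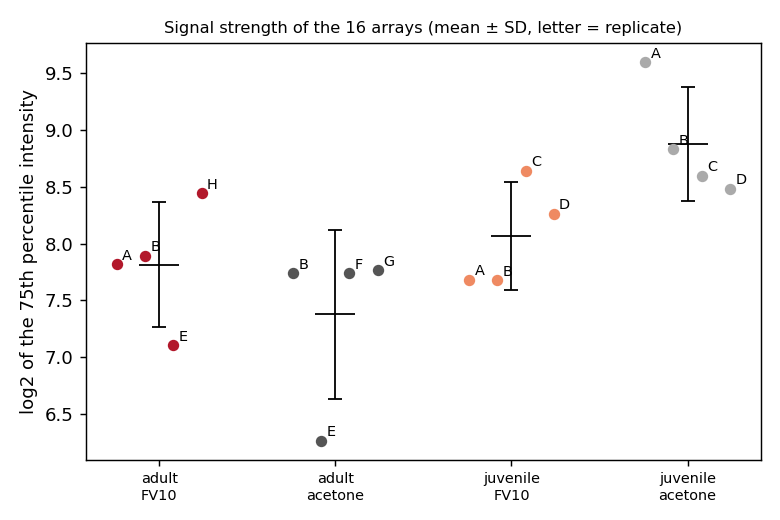
Signal strength of the 16 arrays, as log2 of the 75th percentile intensity (vertical axis), with mean ± SD per group and the replicate letter at each point. Adult FV10 averages 7.81 and adult acetone 7.38, while juvenile FV10 averages 8.07 and juvenile acetone 8.88.

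With log2 of the 75th percentile as a covariate, the interaction passed for 7 probes, all 7 among the 478 and DM00294P3 one of them. Adult FV10 then passed for 1 probe and juvenile FV10 for 204. All 478 kept their direction, with a median size of 1.56 in place of 2.01. Without adult acetone E and juvenile acetone A together, 6 probes passed, all 6 among the 478, which again kept their direction in all 478 cases. Their median size was then 1.83 in place of 2.01. The 478 were chosen on these same arrays, so kept direction and size were favoured in both fits and are no test. Compared with the other treated groups, FV10 was dimmer in both stages, by -0.50 in adults and by -0.70 in juveniles. With those groups in place of acetone and the covariate added, r between adult and juvenile effects was 0.29 and 63.5% of the 1267 probes had the same sign.

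Arrays of a slide were scanned together, and 1 of the 7 slides held all 4 groups. Among its arrays were adult acetone E, juvenile acetone A and juvenile FV10 B. For a check on that slide, the 478 probes with the smallest interaction p in a fit without its 4 arrays were taken, none of which passed there. On the slide their median interaction in the same direction was 2.08, and 445 of 478 (93.1%) had that direction, against 68.2% of all tested probes. Each group had 1 array there. The juvenile arrays there were FV10 B, with a log2 75th percentile intensity of 7.68, and acetone A, with 9.60. The part of signal strength in this check was not tested. Of 2 slides that held adult FV10 and acetone, the median adult effect of 478 probes taken likewise by the adult p was 0.22 on that slide and 0.16 on the other, with 58.7% and 57.9% in the same direction, against 54.5% and 52.0% of all tested probes. Among the 2 slides with juvenile FV10 and acetone, the median of 1267 probes taken by the juvenile p was 1.47 on that slide and 0.23 on the other, which held FV10 C, with 94.9% and 63.0% in the same direction, against 76.0% and 53.1% of all tested probes. Juvenile FV10 A and B also stood apart on the first principal component of the juvenile arrays (22.4% of the variance), at 121 and 85.2, against -4.08 and 21.7 for FV10 C and D and -31.2 to 10.75 for acetone. FV10 A and B were also the dimmest juvenile arrays, with log2 75th percentile intensities of 7.683 and 7.677.

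In fluoxetine the same comparison of stages, which shares both acetone groups with that of fluvoxamine, passed for 71 probes (0.582%), 17 higher (0.139%) and 54 lower (0.443%) in adults. Left-out arrays moved this count between 5, without juvenile acetone A, and 224, without adult acetone G. For DM06256P4 the interaction was -4.67 (SE 0.96) in fluvoxamine and -3.31 (SE 0.96, adjusted p = 0.0968 in limma) in fluoxetine. For DM00294P3 it was 2.15 (SE 0.32) in fluvoxamine and 1.62 (SE 0.32, adjusted p = 0.0218 in limma) in fluoxetine. For DM05031P2 it was 4.53 (SE 1.33) in fluvoxamine and 2.97 (SE 1.33, adjusted p = 0.298 in limma) in fluoxetine.

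The difference between the drugs in their interaction, in which acetone cancels, passed for 1 probe (0.0082%), higher for fluvoxamine, and for 0 (0%) lower, with 488 at an unadjusted p under 0.05. That probe was DM08009P2, named after its values were seen. Its adult means were 3.26 ± 0.56 in FV10 and -1.04 ± 1.63 in FX40, while acetone averaged 3.27 ± 0.998, and its juvenile means were 4.40 ± 0.41 in FV10 and 4.52 ± 0.22 in FX40, while acetone averaged 4.49 ± 0.34 (SD, n = 4 each). Adult FX40 stood apart from the other 5 groups given here. Its fluvoxamine interaction was 0.07 (SE 0.80), and the drugs' difference was 4.42 (SE 0.80, adjusted p = 0.0457 in limma). Left-out arrays moved the count of 1 between 0, as without adult FV10 A, and 9, without adult FX40 B. The labels give the drugs at 10 µg/L and 40 µg/L, and the series' design text at 30 and 80 ppb, so the doses differ by either source and neither is settled here.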

How the data were processed

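Whole-animal RNA (0.4 µg a sample) was column-purified, amplified and labelled with Cy3, per the labels' protocols. The scanner files hold intensity per spot on a linear scale, background-subtracted and detrended by Agilent Feature Extraction 10.7.3.1, per the file headers. The authors' deposited table holds log2 values; it correlated at 0.997 to 1.000 per array with log2 signals quantile-normalized within a stage and centred per probe, with column medians of -0.0984 to 0.106 in adults and -0.0713 to 0.0931 in juveniles. Its direction followed the scanner values, and no further step is recorded in the labels or headers.

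The 15208 non-control spots of an array (870 of 14338 probes in duplicate) were taken as log2 of the processed signal less that of the array's 75th percentile, without outlier-marked spots, and averaged per probe. All 40 arrays entered 1 limma fit (limma 3.58.1, R 4.3.3) of 10 group means, so that all groups shared an estimate of the spread. A linear contrast gave the interaction. The fit was tested on simulated data with independent noise on each array. These data held no shared signal strength or slide effect, so the test does not cover those. No 2 arrays were duplicates (highest correlation 0.9645), and the number of arrays limits the precision.

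The comparison, the lists and the tests were chosen with earlier results of these data known. Named were, per contrast, the 2 largest positive and 2 largest negative values among passing probes complete on 16 arrays, unsaturated, and well above background on at least 2 of 4 arrays in a group of each stage; empty places went to the smallest unadjusted p. The normexp alternative (offset 50) used median signals. The alternatives tried were background correction, normalization, filters, array weights, slide and replicate letter as blocks, signal strength as a covariate and left-out arrays.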

Additional observations from a re-analysis of the deposited data

Results flagged for a closer look

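The fluvoxamine effect differed between stages in limma's test of the difference for 478 probes. Among the probes named, the adult minus juvenile effect past that test was 6.20 in DM06523P3, 4.53 in DM05031P2, -4.67 in DM06256P4, -4.07 in DM15232P1, 3.70 in DM04631P2, 2.15 in DM00294P3 and -1.65 in DM10079P1, on the log2 scale.

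In 6 of 52 groups of 4 arrays examined, 1 array stood apart by Dixon's criterion, of which chance gives about 1 in 20. For DM05031P2 this was adult acetone G at a scaled log2 signal of 2.26. For DM09934P1 it was adult FV10 A at 6.68, and for DM15232P1 adult FV10 B at -3.28. For DM08243P1 it was juvenile FV10 C at 4.03. In signal strength it was adult acetone E, whose log2 75th percentile intensity was 6.27. In the share of probes well above background it was juvenile acetone C, at 57.9%.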

How the results depend on the processing

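The 478 probes kept their direction where measured under every alternative run, except normexp with the 75th percentile (446 kept) and the other treated groups in place of acetone without (475) and with (471) the covariate. Having been chosen on these same arrays, they were likely to keep it, and this is no test. Counts moved more. With normexp and the 75th percentile, 16 interactions, 194 adult and 1 juvenile effects, 9 fluoxetine interactions and 0 differences between the drugs passed, and the median of all interactions shifted to -0.53. On the 16 arrays alone the interaction passed for 2 probes, adults for 5 and juveniles for 14, with 2116 interactions at an unadjusted p under 0.05. Array weights gave 1346 and 175 for the interaction and adults. The signal covariate gave 7, 1 and 204 for the interaction, adults and juveniles, and 0 for fluoxetine; with a slope per stage the first 3 were 2, 11 and 12. Without juvenile FV10 A and B, 14 interactions and 11 juvenile effects passed. Other treated groups in place of acetone gave 6 interactions and 0 adult effects, and 7, 0 and 180 with the covariate. Without adult acetone E and juvenile acetone A, 6, 0 and 619 passed. Adult counts were 26 with normexp and quantile, 6 with quantile, 5 with median scaling, 5 in the deposited table, 0 without the filter, 6 for probes bright on all 16 arrays and 0 on the stage's 20 arrays. Slide as a block gave 1 in adults, 630 in juveniles and 29 for fluoxetine, against 472 for the interaction. Replicate letters were not taken as pairs, although so few arrays cannot exclude pairing. Same-letter correlations ran from -0.218 to 0.146 in juveniles and from -0.043 to 0.071 in adults. Those between different letters ran from -0.249 to 0.363 in juveniles and from -0.300 to 0.267 in adults. In juveniles, 2 of 4 FV10 arrays correlated best with their own letter. With a replicate block the interaction passed for 390, adults for 0, juveniles for 1330, fluoxetine for 10 and the difference between drugs for 0. With 1 array left out, counts ran from 111 to 1288 for the interaction, 0 to 16 for adults, 92 to 2310 for juveniles, 5 to 224 for fluoxetine and 0 to 9 between the drugs. The adult value of DM00294P3 turned to -0.39 under normexp with the 75th percentile and to -0.0103 and -0.0497 against the other treated groups without and with the covariate, and DM08243P1 turned to 0.31 under normexp with the 75th percentile; with normexp and quantile they were 0.33 and -0.70. By the share well above background, the p of the stage by treatment difference was 0.704, and within juveniles 0.743 with the sign turned; adults had 0.371. With 1 array left out, the p of signal strength ran from 0.0114 to 0.0992 for stage by treatment, 0.171 to 0.743 in adults and 0.0286 to 0.143 in juveniles. The causes of these changes were not tested. Probes near background carry the least certain sizes. Of the 478, 26 were well above background on no array of at least 1 group, against 1309 of all 12201 tested.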

Other observations

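Stage levels in the 24 arrays outside the comparison were set beside the calls. Of the 212 probes with a higher effect in adults, 158 (74.5%) had a higher level in adults than in juveniles on those arrays. Of the 266 with a lower effect, 167 (62.8%) did, against 54.6% of all tested probes.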
